A study of Vitis vinifera with 6 samples.

Results

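A run of neighbouring grapevine genes, VIT_03s0038g00930 to VIT_03s0038g01300 on chromosome 3, was followed gene by gene in leaves with and without overexpression of *VviNAC33*. It holds a tandem cluster of SAUR (small auxin up RNA) genes and comprises 33 of the 34369 genes with a probe on the array, each measured by a single probe. The run was chosen by the size and direction of its change between these same leaves. The changes of its genes are therefore a description, with no test of the run, and the number of its lower genes supports nothing. Genes are given below by the last part of the identifier, so that g00930 stands for VIT_03s0038g00930. The study named 16 of the 33 as auxin-responsive or SAUR genes and 3 as something else, and 14 had no name in the sources used here. Most of those names come from the study's own lists of genes changed in these leaves, so they too were selected on this comparison.

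SAUR genes form one of the large families of early auxin-responsive genes in plants. In *Arabidopsis* many of their transcripts rise within minutes of auxin treatment and are short-lived, and several SAUR proteins promote cell expansion by keeping the plasma membrane proton pump active. SAUR genes often lie side by side as tandem copies of similar sequence, and most lack introns.

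The leaves were young leaves of *Vitis vinifera* cv Shiraz (Syrah). The labels place their collection at the first signs of the phenotype of the transgenic plants, whereas the study's text places it ahead of them. In the 3 OXNAC33 samples *VviNAC33*, a NAC transcription factor gene, was stably overexpressed from the cauliflower mosaic virus 35S promoter, on a vector that also carried an eGFP cassette. According to the methods, these replicates were independent transgenic lines with leaves pooled within a line, so that each array combines a line with the transgene. The 3 control samples are labelled only as control leaves of the same cultivar. The study describes the controls of its OXNAC33 plants as transgenic vector controls, transformed with an eGFP sequence in place of *VviNAC33*. Whether the 3 came from separate plants or lines is not stated, so p-values measure only the spread between these samples. RNA was measured on 6 single-colour arrays, with the level of a gene given as log2 of its intensity relative to the 75th percentile of its array: 0 marks that percentile and a change of -1 is 2-fold lower.

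On an array, 69.4% to 74.9% of probes were well above background and 0 were saturated. Leaf RNA was checked with 5 light-harvesting genes, all well above background on every array, with changes from -1.79 to 0.56 of which 0 were called. Without OXNAC33 replicate 2, VIT_07s0005g02220, annotated as LHCII type I CAB-1, changed by -2.5 and was called lower (adjusted p = 0.026 in limma). The other light-harvesting genes were not called there either. *VviNAC33* stood at -5.22, -4.14 and -4.01 on control arrays 1 to 3 and at -0.54, -3.89 and -0.998 on the OXNAC33 arrays. The array labelled OXNAC33 replicate 2 was thus only just above the highest control, and results are given with and without it. The study describes its line OX2 as the one with the highest *VviNAC33* expression. The sample titles give replicate numbers and no line names, so which line this array holds is not known here. By scan time, control replicate 1 and OXNAC33 replicates 1 and 2 formed session 1, and the other 3 arrays formed session 2. In whole leaves, fewer cells that express a gene and less RNA per cell cannot be told apart.

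Of the 33 genes, 27 were well above background on all 3 control arrays, 3 on some and 3 on none. The detected genes covered a wide span of signal in control leaves, with control means from -5.30 in g01070 to 2.15 in g00950 among those detected on all control arrays. Probes differ in brightness for the same amount of RNA, so that these levels are not an order of expression between genes. The spread between control arrays was small for most of the run, with a median SD of 0.252 over the 28 genes that could be tested (those detected, that is well above background, on every array of one group or of both). It ranged from 0.0779 in g00970 to 1.16 in g00980, a gene near background. Between the OXNAC33 arrays the median SD was 0.530, and the SD was larger than in controls for 22 of the 28 genes (78.6%), beside 68.7% of all probes tested.

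**Figure D1:**
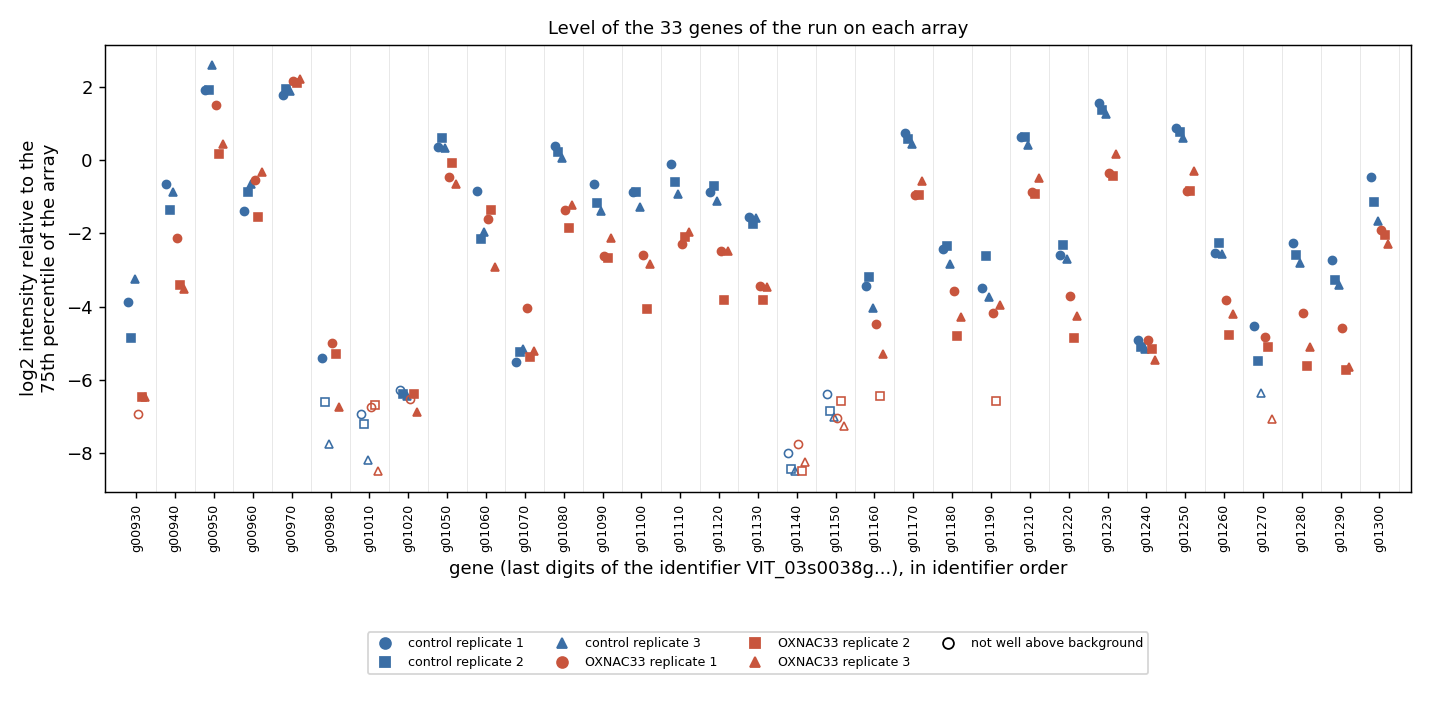
Level of each of the 33 genes (log2 intensity relative to that array's 75th percentile) on the 6 arrays, in identifier order, with blue control and red OXNAC33 symbols and open symbols for spots not well above background. For 22 of the 28 tested genes all OXNAC33 arrays lie below all control arrays, while g00960, g00970, g00980, g01060, g01070 and g01240 do not show this separation.

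Of the 28 tested genes, 24 had a lower mean in OXNAC33 leaves and 4 a higher one. All OXNAC33 arrays were below all control arrays for 22 genes, an arrangement held by 20.4% of all 23907 probes tested. Of the 22, 19 were well above background on every OXNAC33 array. The others, g00930, g01160 and g01190, entered the test through their control spots alone. In limma with Benjamini-Hochberg adjustment over all 23907 probes, 17 of the genes were called lower (adjusted p from 0.0361 to 0.0478) and 0 higher, where 3.33% of all probes were called lower. With detection required on every array of both groups, 16 of 24 genes were called lower, beside 818 of all 22164 probes. Since the genes were selected on this comparison, nothing is read from these counts. The median change over the 28 genes was -1.59, against -0.01 over all probes. Among the 22 genes without overlap the difference ranged from 1.79-fold in g01050 to 6.15-fold in g00930.

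The calls of single genes lay close to the threshold. With scan session as a block, the 17 genes had adjusted p from 0.0546 to 0.0651 and 0 were called, beside 0 of all 23907 probes. Leaving out control replicate 1, 2 or 3, or OXNAC33 replicate 1 or 3, also left 0 called. Over all probes 0 were called without any 1 control array, 9 without OXNAC33 replicate 1 and 1 without OXNAC33 replicate 3. The loss of calls was therefore not particular to the run. Without the array labelled OXNAC33 replicate 2, 16 genes of the run were called lower, beside 6.53% of all probes called lower, and the median change was -1.33. These were 15 of the 17, without g00940 and g01090, and in addition g01050. The changes of the 22 genes ranged from -2.82 to -0.62 within session 1 and from -2.40 to -0.79 within session 2, where their sign is fixed by the lack of overlap that defines them. The sizes depended on the processing. The setting called normexp here used median spot signals, normexp background correction, an added offset of 50 and then quantile scaling. The offset compresses dim signals. With this setting the changes of the 22 genes ranged from -1.57 to -0.56. The median change of the run was -0.94 with it and -1.55 with quantile scaling alone. The offset and the background correction were not tested apart.

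The study's SAUR and auxin-responsive genes made up most of these lower genes. Of the 16, 15 could be tested, and in all 15 every OXNAC33 array was below every control array (20.4% of all probes). Their median change was -1.81, and 14 were called lower, beside 3.33% of all probes. The exception among the 15 calls was g01160, at -3.44, -3.20 and -4.05 in controls and -4.46, -6.45 and -5.29 in OXNAC33 leaves (adjusted p = 0.0829 in limma). Its OXNAC33 replicate 2 value was not well above background and set most of the spread. The untested member, g01270, is described below with the dim genes. Of the 14 genes without a name, 10 could be tested, 7 had a lower mean, 6 were lower without overlap and 3 were called. The same shares of all probes apply to these counts. Most of the names come from lists selected on this comparison, so nothing is read from the counts of named against unnamed genes.

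The first gene of the run, g00930, has no name in the sources used here. Its levels were -3.89, -4.87 and -3.25 in controls and -6.94, -6.48 and -6.46 in OXNAC33 leaves, and fell by 2.62 ± 0.42 on the log2 scale (SE, n = 3 and 3; adjusted p = 0.038 in limma). The OXNAC33 arrays lay more than 1 unit below the lowest control, and only 2 of those 3 spots were well above background. With normexp its change was -0.73, against the 6.15-fold given here. It had the lowest value of the run on the scale used here, but not without control replicate 3 (-2.25, with -2.53 in g01280), without OXNAC33 replicate 1 (-2.47, with -2.80 in g01280) or with normexp (-1.57 in g01230).

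The auxin-responsive SAUR gene g01280 fell by 2.41 ± 0.39 (5.30-fold, adjusted p = 0.038 in limma). It measured -2.27, -2.60 and -2.81 in controls against -4.18, -5.63 and -5.10 in OXNAC33 leaves. All of these spots were well above background, and even the highest OXNAC33 array, replicate 1, was more than 1 unit below the lowest control. Its neighbour g01290, also named a SAUR gene, measured -2.73, -3.27 and -3.41 in controls and -4.60, -5.73 and -5.65 in OXNAC33 leaves, and fell by 2.19 ± 0.37 (4.56-fold). With normexp the change was -1.08 in g01280 and -0.79 in g01290. In both genes OXNAC33 replicate 1 kept the highest level of the 3 lines and replicate 2 the lowest.

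The SAUR genes g01100 and g01120 changed by -2.15 ± 0.40 and -2.03 ± 0.39. For g01100 the levels were -0.87, -0.87 and -1.28 in controls and -2.58, -4.06 and -2.83 in OXNAC33 leaves. For g01120 they were -0.86, -0.71 and -1.13 against -2.49, -3.81 and -2.48. In each of them OXNAC33 replicate 2 was more than 1 unit below the other OXNAC33 arrays, which were close together. The auxin-responsive gene g00940 fell by about as much, 2.05 ± 0.42, with -0.65, -1.37 and -0.87 in controls and -2.12, -3.40 and -3.51 in OXNAC33 leaves. Here it was replicate 1 that stood apart, as the least reduced of the 3 lines. With normexp the changes were -1.41 in g01100, -1.46 in g01120 and -1.41 in g00940.

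Most of the other separated genes were between 2.51-fold and 3.83-fold lower. An even change among them was that of g01130, named auxin-responsive, at -1.55, -1.76 and -1.59 in controls and -3.43, -3.81 and -3.47 in OXNAC33 leaves, and fell by 1.94 ± 0.20 (3.83-fold, adjusted p = 0.036 in limma). The gap between its groups exceeded the range within either of them. The SAUR gene g01080 changed by -1.70 ± 0.24, and the unnamed genes g01090 and g01110 changed by -1.40 ± 0.27 and -1.58 ± 0.26. All of these had detected spots on every array.

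Some genes were lower on every OXNAC33 array without passing the threshold. The unnamed g00950 had 1.92, 1.92 and 2.60 in controls and 1.5, 0.17 and 0.45 in OXNAC33 leaves (-1.44 ± 0.40, adjusted p = 0.080). Its OXNAC33 replicate 1 was close to the controls. The unnamed g01190 had -3.49, -2.61 and -3.74 against -4.17, -6.58 and -3.97 (-1.62 ± 0.72, adjusted p = 0.207), so that the size of its change came mostly from OXNAC33 replicate 2, a spot not well above background. In g01300, the last gene of the run, the groups nearly touched, at -0.45, -1.15 and -1.66 against -1.91, -2.03 and -2.30 (-0.99 ± 0.33, adjusted p = 0.116). These adjusted p-values are from limma over all probes.

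The genes that escaped the fall sat mostly together, between g00960 and g01070. The stretch of 8 genes from g00960 to g01070 held 5 of the 6 tested genes without a separated fall, and the remaining one, g01240, lay among the SAUR genes. Choosing these genes for their lack of a fall makes their changes a description as well.

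Within that stretch, g00970 encodes a dynamin-like protein 2b by the study's annotation; dynamin-like proteins are GTPases that act in membrane remodelling. It measured 1.77, 1.93 and 1.88 in controls and 2.16, 2.10 and 2.22 in OXNAC33 leaves, and was the only tested gene of the run with every OXNAC33 array above every control, which 15.1% of all probes showed. The change was small, 0.30 ± 0.17 (1.23-fold, adjusted p = 0.314 in limma), and almost the same in session 1 (0.36) and session 2 (0.32). Its spots were bright on all arrays, and its SD was the smallest of the tested genes in both groups.

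The unnamed g00960, next to it, measured -1.40, -0.87 and -0.65 in controls and -0.54, -1.56 and -0.33 in OXNAC33 leaves. The groups overlapped, with replicate 2 of OXNAC33 lowest of all 6 arrays, and the change was 0.16 ± 0.38. The gene annotated as a metalloprotease, g01060, varied as widely within the groups as between them. Its levels were -0.84, -2.15 and -1.95 in controls and -1.62, -1.38 and -2.91 in OXNAC33 leaves (-0.32 ± 0.52). Within each scan session every OXNAC33 array was below every control, with a change of -0.66 in session 1 and -0.86 in session 2. With scan session as a block the change was -0.76 (adjusted p = 0.083 in limma). Leaving out single arrays moved the unblocked change from -0.62 to 0.15, so the overlap of its groups depends on the sessions being pooled.

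Between these genes lay the exception of the stretch, g01050, annotated as a phenylalanine-tRNA ligase, an enzyme that charges tRNA with phenylalanine. It measured 0.35, 0.60 and 0.34 in controls and -0.47, -0.08 and -0.67 in OXNAC33 leaves. The groups did not overlap, and the change of -0.84 ± 0.22 (1.79-fold lower, adjusted p = 0.075 in limma) did not pass the threshold, but did so without OXNAC33 replicate 2 (adjusted p = 0.0426). Unlike most SAUR genes of the run, it had OXNAC33 replicate 2 as the highest of the 3 lines.

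The other members that escaped were dim. The unnamed g01070 had -5.50, -5.24 and -5.16 in controls and -4.04, -5.39 and -5.22 in OXNAC33 leaves, where only replicate 1 stood above the controls (0.42 ± 0.38). The unnamed g01240 stayed level at -4.92, -5.11 and -5.15 against -4.91, -5.17 and -5.46 (-0.12 ± 0.22), while g01230 and g01250 on either side of it fell. Both were well above background on all arrays, with control means of -5.30 and -5.06. With median scaling (0.0037), with spike-in scaling (0.13) and without OXNAC33 replicate 3 (0.02) g01240 was higher, so it has no direction here.

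Close to background, g00980 was detected on only 1 control array but on all 3 OXNAC33 arrays. Its levels were -5.42, -6.61 and -7.74 in controls and -5.00, -5.30 and -6.74 in OXNAC33 leaves. The groups overlapped, and the change of 0.91 ± 0.69 had an adjusted p of 0.440 in limma.

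A further 5 genes were not tested because neither group had all its spots well above background. Of these, g01010, g01140 and g01150 were not detected on any array, so no change can be given for them. The unnamed g01020 was detected on 2 arrays of each group, with -6.27, -6.38 and -6.44 in controls and -6.51, -6.40 and -6.87 in OXNAC33 leaves. The SAUR gene g01270 was detected on 2 arrays of each group too, at -4.54, -5.48 and -6.36 against -4.83, -5.10 and -7.07. It was the only one of the 16 named auxin genes without a separation of the groups, and the lowest array of each group was a spot not well above background.

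Of the 11 genes without a separated fall, 5 were not well above background on all arrays of any group, 3 were dim though tested (g00980, g01070 and g01240), and 3 had brighter spots, with control means of -0.97 in g00960, 1.86 in g00970 and -1.65 in g01060. Whether a lower level of g01070, g01240 or the dimmer genes would have been visible at their signal was not tested.

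**Figure D2:**
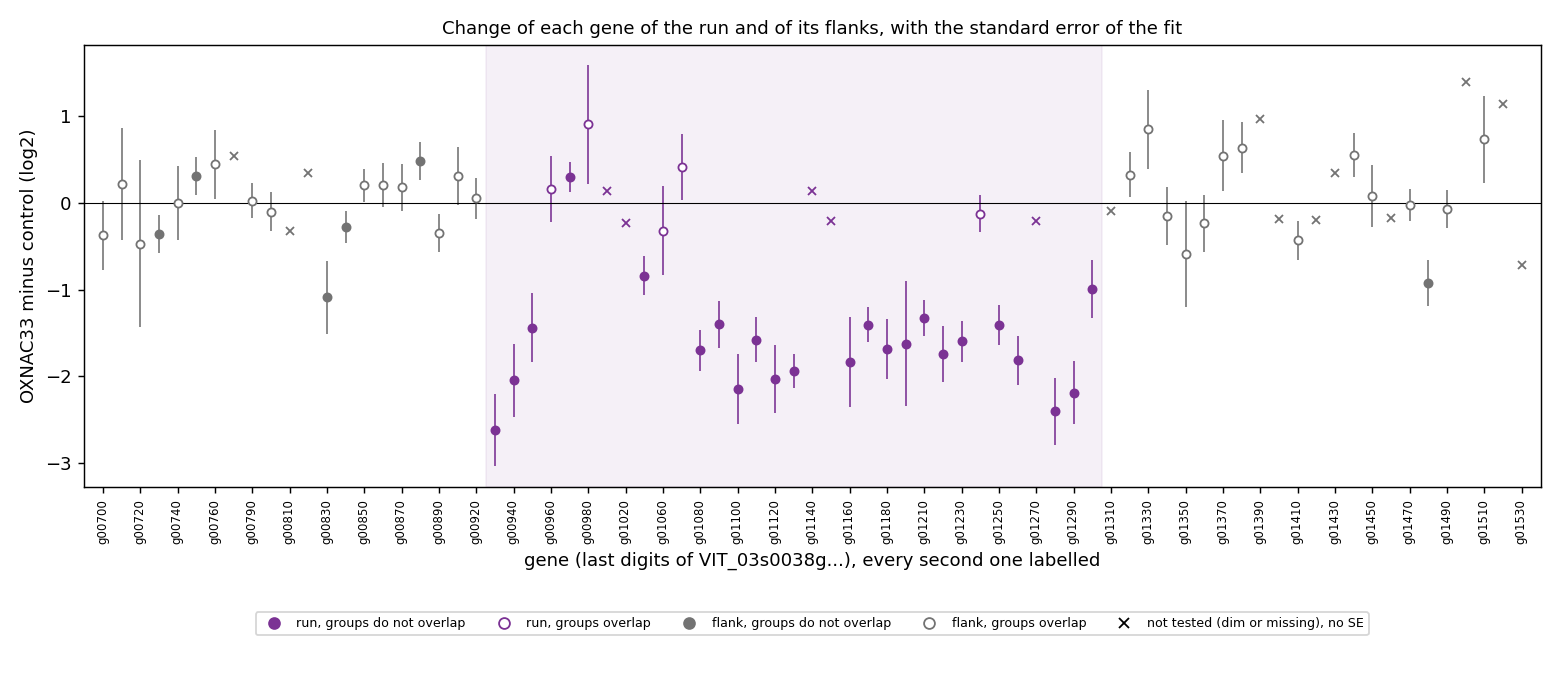
Change (OXNAC33 minus control, log2, with the standard error of the limma fit; 3 arrays a group) of the 33 genes of the run, shaded, and of 44 genes beside it, in identifier order. Filled points mark groups that do not overlap and crosses mark genes not tested. Within the run, separated lower genes lie from g00930 to g00950 and from g01080 to g01300, with g01050 the only one between them. In the flanks 4 tested genes were also lower without overlap, and 0 of the flanking genes were called.

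At the edges of the run, just inside, g00930 changed by -2.62 and g01300 by -0.99. Just outside, g00920 measured -2.06, -2.06 and -1.85 in controls and -1.74, -2.33 and -1.74 in OXNAC33 leaves, a change of 0.05 with overlapping groups. On the other side g01310 was well above background on only 1 array and was not tested. The nearest tested gene there, g01320, measured 1.38, 1.41 and 1.48 against 2.19, 1.31 and 1.74, a change of 0.33 with overlapping groups.

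The flanks lie outside the rule, but the ends of the run were set with results of these data known. A lack of falls beside the run can follow from where it was cut, so the flank counts are a description. Of 44 genes on the array from g00700 to g00920 and from g01310 to g01530, 32 were tested and 0 were called by limma, where 5.02% of all probes were called in either direction. At an unadjusted p under 0.05, 2 of the 32 flanking genes passed in limma, beside 27.3% of all probes, and 1 in the methods' t-test, beside 24.3%. Without OXNAC33 replicate 2, 0 were called, beside 10.7% of all probes. Their changes ranged from -1.09 in g00830 to 0.85 in g01330, with a median of 0.04. In 4 of the 32 (12.5%) all OXNAC33 arrays were below all controls, beside the 20.4% of all probes. The lowest adjusted p, 0.085, belonged to g01480, annotated as a beta-fructofuranosidase, which measured 0.52, 0.71 and 1.12 in controls and 0.10, 0.01 and -0.54 in OXNAC33 leaves.

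The 22 genes were not equally low in the 3 lines. Relative to its control mean, the median gene of the run stood at -1.27 on OXNAC33 array 1, -1.90 on array 2 and -1.34 on array 3, while the median of all probes was 0.04, -0.05 and -0.09 on them. The lowest of the 3 arrays was replicate 2 for 16 of the 22 genes and replicates 1 and 3 for 3 genes each. Among all 4875 probes with the same arrangement of groups, replicate 2 was lowest for 22.4% and replicate 3 for 47.1%. By more than 0.3 units, replicate 2 was lowest for 10 of the 22 genes, replicate 1 for 1 and replicate 3 for 0. The array on which most of these genes were lowest was thus the one with the lowest *VviNAC33* signal among the OXNAC33 arrays, and a link between them was not tested.

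**Figure D3:**
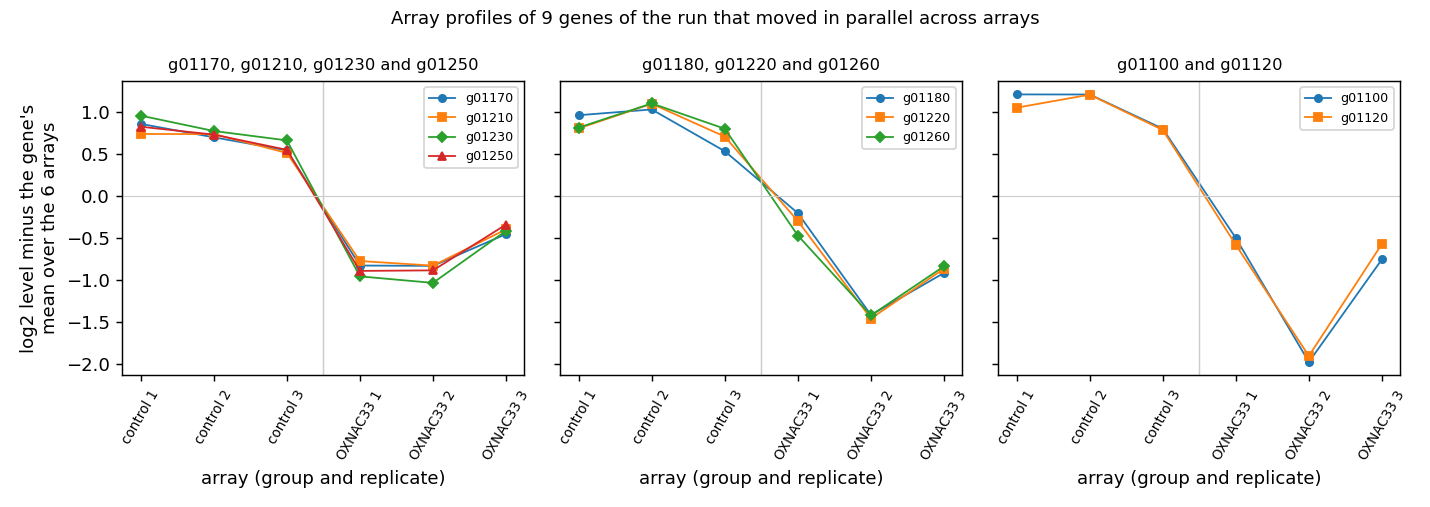
Level of 9 SAUR or auxin-induced genes of the run on each array, as log2 level minus the mean of that gene over the 6 arrays, in 3 sets chosen after their values were seen. The first set lies about level on OXNAC33 arrays 1 and 2 and higher on array 3, and the other sets have their lowest point on array 2.

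Several genes moved in parallel across the 6 arrays. Each gene was centred on its own mean, and a pair was compared by its largest difference on any array. Over the 378 pairs of tested genes the median of that difference was 1.12, and for 7 pairs it was under 0.2. The closest pairs were g01170 with g01250 (0.113), g01210 with g01250 (0.118) and g01170 with g01210 (0.120), and g01230 with g01250 followed at 0.148. A second set joined g01220 to g01260 (0.172) and to g01180 (0.173). The remaining pair was g01100 with g01120 (0.183). All 9 of these genes are named as SAUR or auxin-induced. The sets were formed after the values were seen and have no test. Centring kept the fall shared by most genes of the run, which brings pairs closer, and pairs outside the run were not compared.

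The first set stood about level on OXNAC33 arrays 1 and 2 and higher on array 3. Its member g01230 measured 1.54, 1.36 and 1.25 in controls and -0.37, -0.44 and 0.18 in OXNAC33 leaves, and fell by 1.60 ± 0.24. In g01170 the levels were 0.74, 0.58 and 0.43 against -0.94, -0.95 and -0.57, and fell by 1.40 ± 0.21. Over the 4 genes the mean OXNAC33 array 3 level was 0.48 higher than the mean of arrays 1 and 2. That array is also the only OXNAC33 array of scan session 2, and accordingly the falls were larger in session 1 (from -1.95 to -1.54) than in session 2 (from -1.13 to -0.98). Line and session cannot be told apart here.

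The second set differed on the same arrays. Auxin-induced protein 15A, g01220, measured -2.60, -2.31 and -2.70 in controls and -3.70, -4.86 and -4.27 in OXNAC33 leaves, and fell by 1.74 ± 0.32. Its companion g01260 measured -2.54, -2.26 and -2.56 against -3.83, -4.78 and -4.19, and fell by 1.81 ± 0.28. Averaged over the 3 genes, OXNAC33 array 2 was 0.83 below the mean of arrays 1 and 3, compared with 0.26 in the first set and 1.34 in g01100 and g01120. In this set session 1 and session 2 gave similar changes, from -1.77 to -1.68 and from -1.79 to -1.70.

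By identifier, the sets alternate along the run. Genes g01170, g01210, g01230 and g01250 belong to the first set, while g01180, g01220 and g01260 of the second lie directly after g01170, g01210 and g01250. Tandem SAUR copies can be similar enough for a probe to pick up the transcript of a neighbour. Probe sequences were not used here, so whether the parallel genes were measured independently was not tested.

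SAUR genes outside the run were examined beside it. The study names 16 on the array, and 13 were tested. Of these 7 were listed by the study as changed in these leaves, so their direction is not independent. All 7 were lower without overlap (20.4% of all probes were), with a median change of -1.47, and 5 were called lower, beside 3.33% of all probes: VIT_04s0023g00490, VIT_04s0023g00520, VIT_04s0023g00540, VIT_04s0023g00550 and VIT_18s0001g13980. With scan session as a block 0 of them were called, beside 0 of all 23907 probes. Without OXNAC33 replicate 2, 5 SAUR genes outside the run were called, beside 10.7% of all probes. Leaving out any other single array left 0, where 9, 1 or 0 of all probes were called.

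VIT_18s0001g13980 had the most even change of these genes. Its levels were -0.21, -0.18 and -0.20 in controls and -2.61, -2.56 and -2.51 in OXNAC33 leaves, and fell by 2.36 ± 0.17 (5.15-fold, adjusted p = 0.029 in limma). The array labelled OXNAC33 replicate 2 fell as far as the other arrays in this gene. On chromosome 4, where several SAUR genes lie close together by identifier, VIT_04s0023g00540 measured -3.52, -3.75 and -3.38 in controls and -5.32, -5.62 and -6.00 in OXNAC33 leaves, and fell by 2.10 ± 0.24. VIT_04s0023g00550, its neighbour, fell by 2.33 ± 0.35, but only 1 of its 3 OXNAC33 spots was well above background. The smaller changes were -1.47 ± 0.30 in VIT_04s0023g00490 and -1.08 ± 0.18 in VIT_04s0023g00520. With normexp the changes of the 5 called genes ranged from -1.72 to -0.54. Replicate 3 was lowest in VIT_04s0023g00490, VIT_04s0023g00520 and VIT_04s0023g00540.

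**Figure D4:**
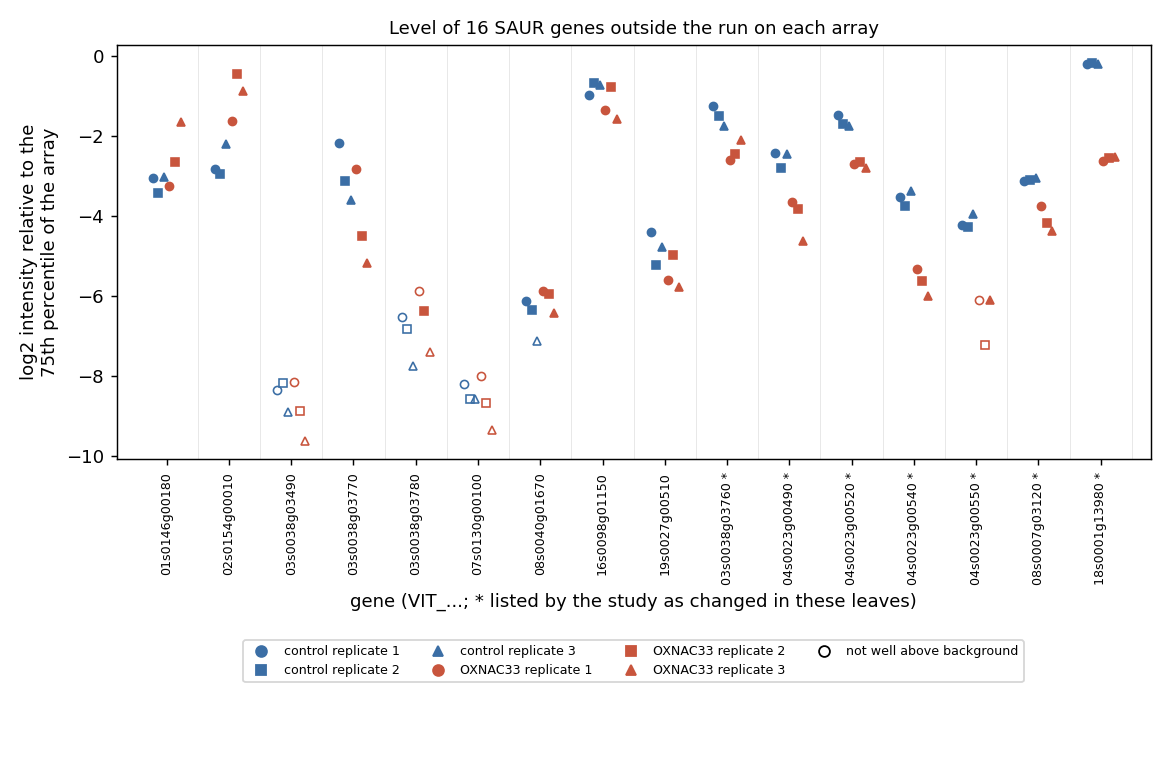
Level of 16 SAUR genes outside the run on the 6 arrays (log2 intensity relative to that array's 75th percentile), with blue control, red OXNAC33 and open symbols for spots not well above background. The 7 genes marked with an asterisk were listed by the study as changed in these leaves and all lie lower in OXNAC33, while of the others VIT_02s0154g00010 lies higher on all 3 OXNAC33 arrays.

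The SAUR genes that the study had not listed as changed in these leaves did not share a direction. Genes listed as changed had been set apart, so the split itself leaves few falls and calls among the rest. Nothing is read from the counts below. Of 9, 6 were tested, 3 had a lower mean and 0 were called by limma (1 at an unadjusted p under 0.05, beside 27.3% of all probes), with a median change of 0.00. The lowest change, -1.20 ± 0.66, was that of VIT_03s0038g03770, which lies on the same scaffold as the run. Its groups overlapped, but within each scan session every OXNAC33 array was below every control. Its change was -1.49 in session 1 and -1.83 in session 2, and -1.66 with scan session as a block (adjusted p = 0.101 in limma). The opposite extreme was VIT_02s0154g00010. Its levels were -2.83, -2.96 and -2.20 in controls and -1.61, -0.45 and -0.86 in OXNAC33 leaves, with all OXNAC33 arrays above all controls (1.69 ± 0.36, 3.22-fold). Its adjusted p was 0.0509 in limma and ranged from 0.0397 to 0.141 over 12 alternatives that used all arrays, with 6 of them under the threshold. The change was 1.80 in session 1 and 1.72 in session 2.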

How the data were processed

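The authors hybridized RNA to a custom grapevine array with 1 dye and deposited scanner files of Agilent Feature Extraction 10.5.1.1. The deposited processed intensity had been corrected for background by the software but not scaled between arrays. Deposited flags of 0 or 1, another kind of value, marked spots well above background, saturated spots and outliers. The authors' table of processed intensity values held 27 of the 33 genes among 23080 probes and equalled the scanner intensity times 1 factor per array within 0.00603 on the log2 scale.

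Intensities were log2 transformed, reduced by the array's 75th percentile, and tested two-sided as OXNAC33 minus control, with lmFit and eBayes from limma 3.58.1 under R 4.3.3. The fit covered all 23907 probes detected (well above background) on every array of one group or of both, with Benjamini-Hochberg adjustment over them and a threshold of 0.05. Outlier spots were left out. The number of arrays, 3 a group, limits the precision. The code was tested on simulated data.

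The genes of the run and all lists were chosen with earlier results of these data known. Values on every array were given for genes that overlapped or were not lower, genes with another annotation, untested genes and the 6 largest falls among genes detected in all controls, and outside the run for called genes and the nearest tested neighbours; other genes were added after their values were seen. Gene names came from the study's lists. Identifiers matched 0 genes of the RefSeq table given, so no sequence or coordinate was used. Alternatives varied scaling, background, filter, block, test and arrays. Normexp on median spot signals, with an offset of 50 and quantile scaling, and scaling on spike-in probes were chosen after seeing the data. Normexp on mean signals was not run, as that column was not used here.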

Additional observations from a re-analysis of the deposited data

How the results depend on the processing

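The median change of the tested genes of the run stayed between -1.65 and -1.33 under the other settings with all arrays except normexp, where it was -0.94, and between -1.67 and -1.33 when single arrays were left out. The 17 genes called lower became 6 with spike-in scaling and 0 with no filter on dim probes, with scan session as a block, with the replicate block and with the methods' t-test after Benjamini-Hochberg (21 at an unadjusted p under 0.05, beside 24.3% of all probes), and the count was 0 to 16 without single arrays (the 16, without OXNAC33 replicate 2, held 15 of the 17). The 5 SAUR genes called outside the run became 3 with spike-in scaling, 0 with no filter, with the session block and with the replicate block, 1 with the t-test, and 0 to 5 without single arrays. Over all 23907 probes, spike-in scaling called 282 lower, beside 795 in the main setting, so calls fell across the array as well. No filter, session block and replicate block called 0 over all probes, and 6314, 6844 and 5997 passed an unadjusted p under 0.05. Flanking genes had 0 calls in every setting. The causes were not tested. The sample titles do not say whether shared replicate numbers mark pairs. Same-numbered arrays correlated at 0.256, -0.222 and 0.181 in their deviations from group means, and other pairs of arrays from -0.41 to 0.273. With 3 arrays a group, these values cannot decide whether the numbers pair arrays. Counts over all probes were 1200 in the main setting, 1702 with normexp, 1806 with trend and robust, 2 with the t-test, 2554 without OXNAC33 replicate 2 and 9, 1 or 0 without another array. Lower calls made up 66.2% of all calls in the main setting, 55.4% with median scaling and 32.1% with spike-in scaling, which moved the median of all probes to 0.11 and 0.25.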
